A study of Mus musculus with 6 samples.

Results

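The genes examined here are 37 keratin, desmosome, tight junction and hemidesmosome genes of the epidermis and of the periderm, the flat outer layer of embryonic skin, together with transcription factors and trafficking, splicing and protease inhibitor genes of epithelium. They were named by symbol, and the platform annotation gave 61 probe sets for 36 of them, out of 12393 genes measured in all. Grhl3 had no probe set annotated to it and was not analysed here. The brightest probe set by the mean of 6 arrays stands for each gene. Wild-type embryos and embryos homozygous for a Trps1 mutation, 3 of each, were compared in whole whisker pads at E12.5, with total RNA from 1 embryo on each Affymetrix MOE430A array. Which part of Trps1 the mutation alters, and the strain of the mice, are not known from the sources used. The series title gives the transcriptional targets of Trps1 in vibrissae as the question.

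The embryonic epidermis rests on a basement membrane. Its basal cells carry the keratin pair Krt5 and Krt14 and depend on the transcription factor p63 (Trp63), while periderm cells above them carry simple keratins such as Krt8, Krt18 and Krt19. Keratin filaments are anchored to desmosomes between cells and to hemidesmosomes at the basement membrane, and claudins seal the tight junctions. Vibrissa follicles arise from this epithelium as placodes over condensing dermis. Trps1 is a zinc finger factor related to the GATA proteins and acts as a repressor.

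The promoters of 4 of the genes are shown, the basal keratin pair and the genes whose window held a grainyhead motif, with the letters of searched motifs in capitals. Each window runs 5′ to 3′ on the gene's strand, from 250 bases before the RefSeq start to 50 after it (build GRCm38.p6). The windows are chr15:101712856-101713155 (minus strand) for Krt5, chr11:100205981-100206280 (minus) for Krt14, chr4:133602119-133602418 (minus) for Sfn and chr3:88548230-88548529 (minus) for Rab25.
Krt5: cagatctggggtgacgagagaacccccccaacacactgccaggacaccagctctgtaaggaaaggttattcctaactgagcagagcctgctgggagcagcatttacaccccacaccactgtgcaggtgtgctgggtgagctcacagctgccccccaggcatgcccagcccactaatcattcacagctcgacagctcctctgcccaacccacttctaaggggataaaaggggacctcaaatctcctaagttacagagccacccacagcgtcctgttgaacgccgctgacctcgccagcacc
Krt14: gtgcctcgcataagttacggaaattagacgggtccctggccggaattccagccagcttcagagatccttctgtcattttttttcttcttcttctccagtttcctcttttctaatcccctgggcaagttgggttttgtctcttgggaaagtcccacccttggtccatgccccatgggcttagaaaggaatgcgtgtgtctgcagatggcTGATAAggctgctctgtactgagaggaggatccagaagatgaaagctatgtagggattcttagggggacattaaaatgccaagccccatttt
Sfn: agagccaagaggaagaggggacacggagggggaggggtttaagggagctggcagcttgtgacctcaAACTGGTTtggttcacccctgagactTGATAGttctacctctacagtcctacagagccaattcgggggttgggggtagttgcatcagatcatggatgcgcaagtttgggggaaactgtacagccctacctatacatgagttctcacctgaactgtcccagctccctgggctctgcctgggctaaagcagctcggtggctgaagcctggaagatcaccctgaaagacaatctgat
Rab25: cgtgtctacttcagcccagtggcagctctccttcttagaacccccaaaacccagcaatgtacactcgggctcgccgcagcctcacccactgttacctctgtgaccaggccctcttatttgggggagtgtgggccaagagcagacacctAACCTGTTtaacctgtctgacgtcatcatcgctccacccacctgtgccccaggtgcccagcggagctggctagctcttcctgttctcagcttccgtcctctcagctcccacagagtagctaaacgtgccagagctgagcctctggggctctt
The capitals mark a GATA motif (GATAA or GATAG after an A or a T), a grainyhead motif (AACCNGTT) or an AP-2 motif (GCCNNNGGC), each searched on both strands. Krt5 held no match in this window. Krt14 held TGATAA with its first base 42 bases before the start. Sfn held TGATAG at 158 bases and AACTGGTT at 184 bases before it, and Rab25 held AACCTGTT at 102 bases. Promoter windows were at hand for 19 of the 37 genes, 22 windows in all. A GATA motif lay in 6 of the 22 windows, those of Cldn4, Jup, Krt10, Krt14, Krt8 and Sfn, against 29.8% of 32851 mouse promoter windows of the same length. The AP-2 motif lay in 4 of the 22, those of Dsp, Krt18, Spint1 and Spint2, against 16.6%, and the grainyhead motif in 2 of the 22 against 2.09%. No motif overlapped another in these windows. These matches describe letters, not bound sites.

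On the arrays, 27 bacterial control probe sets read 0.4 to 33.8, and a gene is called above background here where its mean over the 6 arrays exceeds 33.8. Trps1 itself read 807.6, 1061.4 and 748.1 in wild-type and 1297.3, 1491.9 and 1506.7 in mutant pads, so its level does not check the labels. Wild-type replicate 3 read as female (Xist 461.5, Eif2s3y 11.9) and the other 5 arrays as male (Xist 44 to 93.7, Eif2s3y 207.3 to 272.3), while the labels give no sex. The 2 arrays numbered 3 stood apart from the others on the first principal component (24.6 and 19.8, against -23.3 to -1.09), which held 26.5% of the variance. They also had the highest ratios of 3′ over 5′ signal at the actin probe sets, a sign of RNA quality, 1.19 in wild-type and 1.35 in mutant, against 1.07 to 1.13 on the other 4 arrays. Results that rest on these arrays are given below with and without them. Markers of dermal mesenchyme were above background for 19 of 22 genes, and those of skeletal muscle for 5 of 13.

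Most of the epidermal and periderm genes read above background in the whisker pad, as did most genes on the arrays, and 0 were called between the genotypes. Of the 36 measured genes, 34 had a mean above background, against 9445 of all 12393 genes, and 29 read above it on every array. The exceptions by mean were Dsc3 and Itgb4. No member passed limma at an adjusted p under 0.05, and 0 had an unadjusted p under 0.05, against 5.37% of all genes (2.89% higher and 2.49% lower in the mutant). The adjusted p of the members ranged from 0.931 to 0.999. The methods' t-test likewise gave 0 members with an unadjusted p under 0.05, against 5.11% of all genes, and 0 at the study's thresholds of p and fold, against 1.5% of all genes. By size alone, 0 members differed by 1.5-fold or more on the log2 scale, against 5.09% of all genes. That count rests on the offset of 16: with an offset of 1 it was 3 (Krt17, Itgb4 and Dsc3, all read near the bacterial controls), against 14.9% of all genes. The wild-type and mutant groups overlapped for each of the 36, whereas they did not for 10.4% of all genes (5.54% higher and 4.83% lower). Whether these counts set the 36 members apart from other genes was not tested. The mutant mean was higher for 24 members and lower for 12, against 50.1% higher over all genes. Of the 34 above background 22 were higher, against 49.9%. The median difference was 0.095 for members and 0.00017 for all genes. Each difference is the mutant mean minus the wild-type mean of log2(signal + 16). Whole pads were measured, so fewer epithelial cells and less RNA per epithelial cell cannot be told apart.

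**Figure D1:**
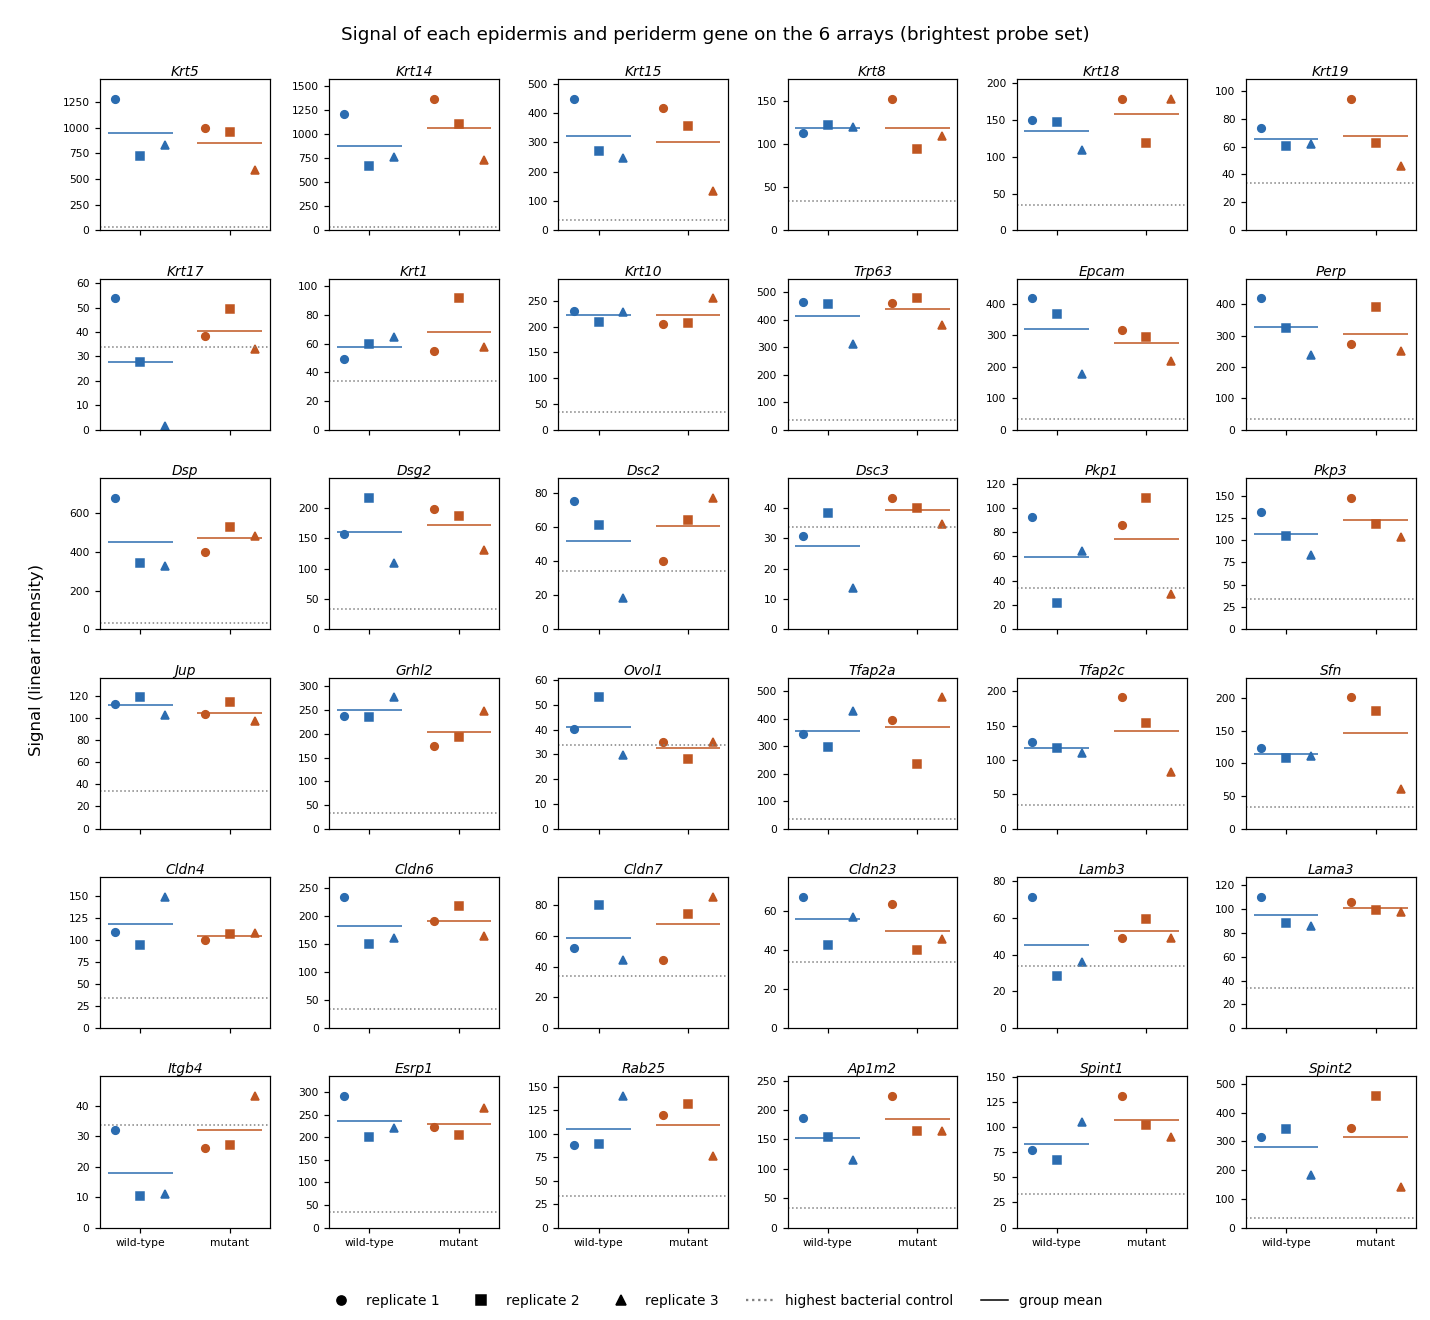
Linear signal (y axis, 0 at the bottom of each panel) of the brightest probe set of each of the 36 genes on the 3 wild-type and 3 mutant arrays, with horizontal lines for group means and a dotted line at the highest bacterial control, 33.8. The groups overlap in each of the 36 panels.

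The precision of these comparisons was limited by 3 embryos per genotype. Standard errors of the differences ran from 0.15 to 0.49 with a median of 0.24. The 95% interval lay between -1 and 1, a 2-fold change either way on this scale, for 29 of 36 genes. For the other 7 (Krt15, Krt17, Dsc2, Pkp1, Sfn, Itgb4 and Spint2) it reached past 1 of these bounds. A change of the study's 1.5-fold lay outside the interval for 9 genes. The values below therefore bound the size of a change more than they show its absence.

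**Figure D2:**
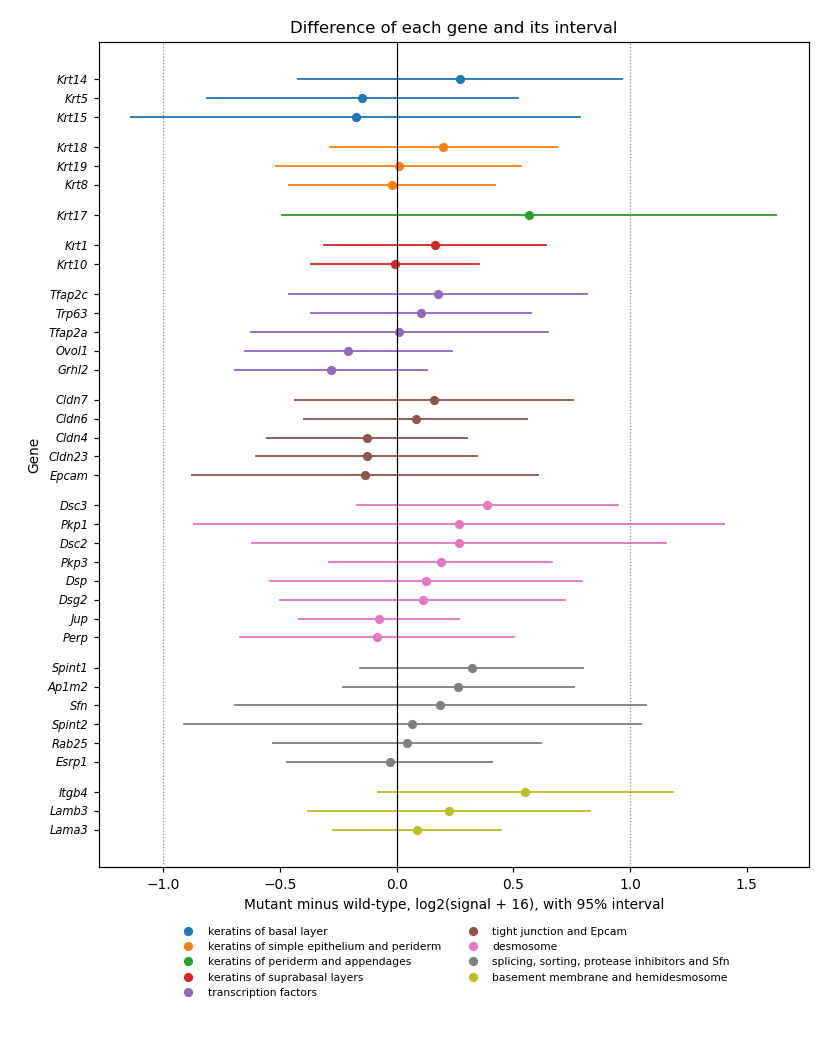
Mutant minus wild-type difference on the log2(signal + 16) scale (x axis) for each gene (y axis, grouped by role and coloured by group), with points for the estimate and lines for its 95% limma interval. Every interval includes 0, and dotted lines mark -1 and 1.

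Keratins of the basal layer varied among embryos of the same genotype as much as between genotypes. Krt5, the type II keratin of basal cells, read 1282.6, 721.7 and 831.5 in wild-type and 1002, 961.5 and 584.9 in mutant pads, a difference of -0.15 (interval -0.81 to 0.52). Its type I partner Krt14 read 1212.6, 673.3 and 765.3 in wild-type and 1369.5, 1112.8 and 728.8 in mutant pads, a difference of 0.27 (-0.42 to 0.97). Krt15, a type I keratin of basal cells, read 447.6, 268.8 and 247.5 and then 415.7, 353.8 and 135.3, a difference of -0.18 (-1.14 to 0.79). In all 3 genes wild-type replicate 1 and mutant replicates 1 and 2 were the 3 highest arrays. Mutant replicate 3 was the lowest for Krt5 and Krt15 and wild-type replicate 2 for Krt14. A further bright probe set of Krt14 ran alike, at 1069.5, 568.1 and 575.6 in wild-type and 1224.4, 1021.7 and 533.2 in mutant pads. The third, dimmer one read 26.9 to 69.3 and differed by -0.24 (SE 0.29).

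Simple keratins, carried by periderm and by simple epithelia, had narrower intervals than the basal keratins, and each interval included 0. Krt8 read 113.2, 122.3 and 119.4 in wild-type and 152.5, 94.6 and 108.9 in mutant pads, a difference of -0.02 (-0.46 to 0.42). Its partner Krt18 read 149.6, 147 and 108.5 and then 178.4, 118.9 and 178.6, a difference of 0.20 (-0.29 to 0.69). Krt19 read 73.2, 60.3 and 61.9 and then 94.1, 62.8 and 46.2, a difference of 0.01. These 3 genes did not follow the array order of the basal keratins as a group: Krt19 had the same 3 arrays highest, whereas mutant replicate 2 was the lowest array for Krt8. The other probe sets of Krt8 ranged from 13.9 to 83.1 and from 11.9 to 88.4 over the arrays, with differences of 0.49 (SE 0.43) and 0.18 (SE 0.57).

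Krt17, a type I keratin of periderm and of skin appendages, read 53.8, 27.6 and 1.6 in wild-type and 38.3, 49.6 and 33 in mutant pads. Only 3 of these 6 values lay above the bacterial controls, and the difference of 0.57 (-0.49 to 1.63) was 1.35 with an offset of 1 in place of 16 and 0.06 with a floor of 32 and no offset. A probe set annotated to both Krt17 and Krt14 read 22.8 to 59.4 and differed by -0.10 (SE 0.34). Krt1 and Krt10, the keratin pair of differentiating suprabasal cells, differed by 0.16 (-0.31 to 0.64) and -0.01 (-0.37 to 0.35). Krt10 was among the steadiest genes, at 229.2, 209.3 and 227.6 in wild-type and 204.1, 206.4 and 254.5 in mutant pads. Krt1 read 49.3, 59.6 and 64.5 and then 54.8, 91.4 and 57.5, with mutant replicate 2 the highest.

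Desmosome genes had a median difference of 0.16, with 6 of 8 higher in the mutant mean. At an unadjusted p under 0.05 by limma 0 of the 8 were called, against 5.37% of all genes. Desmoplakin (Dsp), which ties keratin filaments to the desmosome, read 678.7, 343.2 and 328.8 in wild-type and 396.9, 529 and 482.5 in mutant pads. Wild-type replicate 1 thus stood above the other 5 arrays, and the difference was 0.13 (-0.54 to 0.80). Its next probe set read 353.6 to 517.5 with a difference of 0.02. Perp, a membrane protein of desmosomes and a p63 target, read 418.5, 324.4 and 237.2 and then 273.6, 391.5 and 249.9, a difference of -0.09. Plakoglobin (Jup), a linker shared by desmosomes and adherens junctions, was the steadiest member, at 112.3, 118.4 and 102.4 in wild-type and 102.9, 114.2 and 96.7 in mutant pads. Its difference was -0.08 (-0.42 to 0.27).

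Among the desmosomal cadherins, Dsg2 read 157.4, 216.4 and 108.8 in wild-type and 197.2, 186.8 and 130.7 in mutant pads, a difference of 0.11. Its other 3 probe sets above background differed by 0.09, -0.08 and -0.21. Dsc2 read 75.3, 61 and 18.1 and then 40.1, 64 and 76.9, and its difference of 0.27 (SE 0.38) was -0.12 (SE 0.31) at its other probe set. Wild-type replicate 3 was the lowest array for Dsg2, Dsc2 and Dsc3. Dsc3, at 30.7, 38.4 and 13.5 in wild-type and 43.3, 39.9 and 34.7 in mutant pads, lay close to background with a difference of 0.39 (-0.17 to 0.95). The plakophilins are plaque proteins that link the cadherins to desmoplakin. Pkp3 read 131.6, 104.5 and 83 and then 147.5, 118 and 103, a difference of 0.19. Pkp1 read 92.9, 21.3 and 64.8 and then 86.3, 108.4 and 28.9, a difference of 0.27 (-0.87 to 1.40). Its lowest arrays, wild-type replicate 2 and mutant replicate 3, lay under the highest bacterial control.

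Tight junction genes and Epcam, an epithelial adhesion molecule, had a median difference of -0.13, with 2 of 5 higher. Epcam read 417.1, 368.2 and 177 in wild-type and 318, 294.6 and 217 in mutant pads, a difference of -0.14 (-0.88 to 0.61). The claudins are the membrane proteins that form the tight junction strand. Cldn6 read 234.2, 149.9 and 160 and then 190.1, 216.9 and 164.6, a difference of 0.08. Cldn4 read 109, 94.6 and 148.7 and then 100.2, 106.2 and 107.3, a difference of -0.13, with wild-type replicate 3 the highest array. For Cldn7 and Cldn23 the differences were 0.16 and -0.13, with signals of 44.4 to 85.4 and 40 to 67.3.

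The 3 basement membrane and hemidesmosome members were dim apart from Lama3. Genes of these structures outside the members were not all dim, such as Itga6 at a mean of 385.7. Laminin alpha 3 (Lama3) read 110.5, 88.2 and 85.7 in wild-type and 106.3, 99.4 and 97.7 in mutant pads, a difference of 0.09 (-0.27 to 0.45). Laminin beta 3 (Lamb3), its partner chain in the epidermal basement membrane, read 71.5, 28.3 and 35.8 and then 49.2, 59.6 and 49, a difference of 0.22. Integrin beta 4 (Itgb4) joins hemidesmosomes to laminin. It had the smallest unadjusted p of the members (0.0786, adjusted p = 0.931 by limma), at 32, 10.5 and 10.9 in wild-type and 26.2, 27.1 and 43.2 in mutant pads. Both of its group means lay under the highest bacterial control, and its difference of 0.55 was 0.14 with a floor of 32 and 0.97 with an offset of 1.

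Transcription factors of the epidermis had a median difference of 0.01 over 5 measured genes. Trp63 read 465.8, 458.6 and 311.3 in wild-type and 459.4, 477.3 and 379.9 in mutant pads, a difference of 0.10 (-0.37 to 0.57). Both arrays numbered 3 were the lowest at this probe set and at the other 2 probe sets of Trp63. At 1 of those they read 19 and 7.3, against 73 to 113 on the other 4 arrays. Grhl2, a grainyhead factor that controls epithelial junction genes, read 237.7, 236 and 277.1 and then 174.5, 192.3 and 247.4. Its difference of -0.28 (-0.69 to 0.13) was the lowest among members, and its other probe set above background differed by -0.13 (SE 0.22).

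The AP-2 factors act early in surface ectoderm. Tfap2a read 344.8, 295.9 and 430.2 in wild-type and 395.9, 236.4 and 478.9 in mutant pads, a difference of 0.01 (-0.62 to 0.65), and -0.40 (SE 0.30) and -0.0049 (SE 0.23) at its other probe sets. Tfap2c read 126.3, 117.4 and 110.5 and then 191.3, 154.5 and 82, so that mutant replicates 1 and 2 lay above and mutant replicate 3 below the wild-type arrays. Its difference of 0.18 was 0.12 and 0.08 at its other probe sets, which did not repeat this order. Mutant replicate 3 was the highest array at the first of these (148.5) and lay among the wild-type values at the second (95.3). Ovol1, a zinc finger factor of epidermal differentiation, read 40.1, 53.1 and 29.7 in wild-type and 35.1, 28.3 and 34.9 in mutant pads, a difference of -0.21 near the background.

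The remaining members serve protein sorting, splicing, protease control and growth arrest, and 5 of 6 were higher in the mutant mean with a median difference of 0.13. Sfn, the 14-3-3 sigma protein of stratified epithelium, read 123.1, 107.7 and 111.2 in wild-type and 201, 179.9 and 60.1 in mutant pads. Mutant replicates 1 and 2 lay above the wild-type arrays and mutant replicate 3 below, which gave a difference of 0.19 (-0.69 to 1.07). Spint2, a Kunitz-type inhibitor of membrane serine proteases, read 315, 343.9 and 183.1 and then 347.9, 457.6 and 142.4, a difference of 0.07. Its second probe set ran alike on the arrays numbered 3 (125.8 and 82, against 215.8 to 246.6) and differed by -0.25 (SE 0.40). Spint1, the related inhibitor, read 77, 67 and 104.8 and then 130.6, 101.6 and 89.6, a difference of 0.32 (-0.16 to 0.80).

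Ap1m2, the clathrin adaptor subunit of epithelial cells, read 185.5, 153.7 and 115.3 in wild-type and 223.4, 164.4 and 164.3 in mutant pads, a difference of 0.26 (-0.23 to 0.76). The epithelial splicing regulator Esrp1 read 291.2, 199.8 and 220.8 and then 222.4, 205 and 264, a difference of -0.03. Rab25, a small GTPase of epithelial recycling endosomes, read 87.5, 88.9 and 139.9 and then 120.4, 131.2 and 76.7, a difference of 0.05. The arrays numbered 3 were at opposite ends for Rab25, highest in wild-type and lowest in mutant.

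The level of these genes varied more among embryos than between genotypes. For 32 of the 34 members above background the difference was smaller than the SD within groups on the log2 scale, against 70.8% of the 9445 genes above background. The median within-group SD was 0.33 for these members and 0.22 for those genes. The ratio of the highest to the lowest array was 1.22 for Jup, the smallest, and had a median of 1.93. Summed over the 36 members, the signal was 8696.5, 6501.8 and 6137.8 in wild-type and 8197.1, 7849.8 and 6160.9 in mutant pads. Wild-type replicate 1 and mutant replicates 1 and 2 were high and the other 3 arrays low, so each genotype held both.

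On each array the level was also taken as the mean over the 34 members of log2(signal + 16) minus each gene's mean over the 6 arrays. It was 0.18, -0.09 and -0.21 in wild-type and 0.15, 0.12 and -0.16 in mutant pads, where the 9445 genes above background gave -0.03 to 0.02. The group means differed by 0.07, with an SD of 0.20 among wild-type and 0.17 among mutant pads (n = 3 each). The highest array was wild-type replicate 1 for 11 of the 34 members (12.2% of genes above background), mutant replicate 1 for 8 (18.5%), mutant replicate 3 for 5 (19.6%), mutant replicate 2 for 4 (16.3%) and wild-type replicates 2 and 3 for 3 each (10.7% and 22.8%). The lowest was wild-type replicate 3 for 12 (15.2%), mutant replicate 3 for 8 (21.4%), wild-type replicate 2 for 7 (15%), mutant replicate 2 for 4 (15.1%), mutant replicate 1 for 2 (17.2%) and wild-type replicate 1 for 1 (16%). Basal keratins spanned -0.65 to 0.50 and desmosome genes -0.38 to 0.31, while the mean of the transcription factors lay between -0.11 and 0.09. That narrow range averages genes that moved apart on the same arrays. Tfap2a alone spanned -0.55 on mutant replicate 2 to 0.42 on mutant replicate 3, and Tfap2c -0.54 on mutant replicate 3 to 0.54 on mutant replicate 1.

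**Figure D3:**
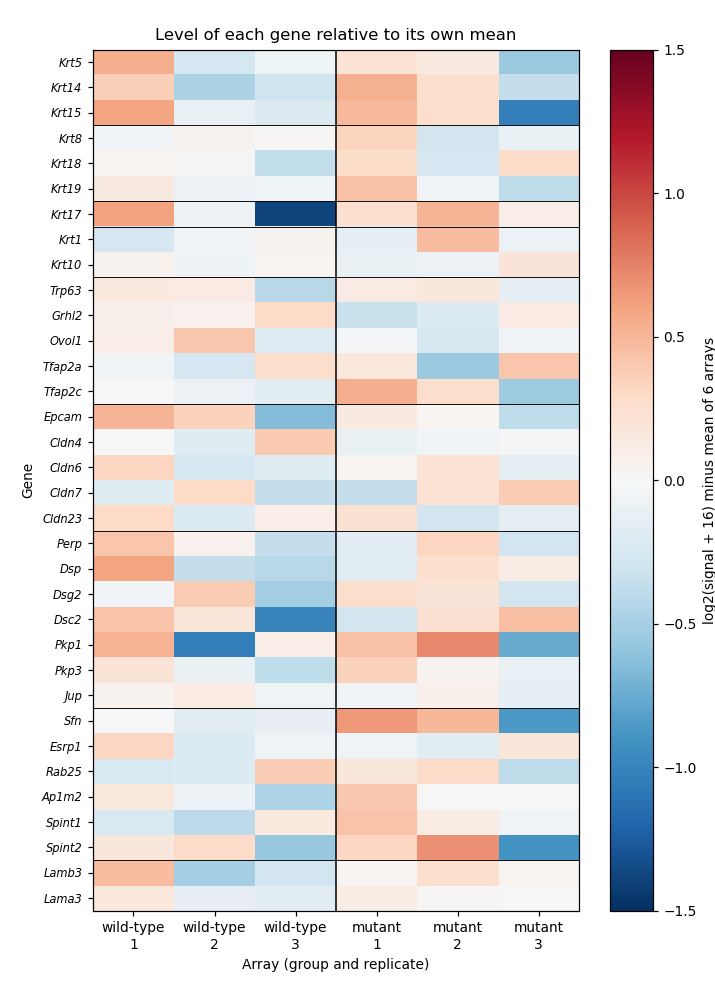
Level of the 34 genes above background (rows, grouped by role) on each array (columns), as log2(signal + 16) minus the gene's mean of 6 arrays, red above and blue below 0. Genes above their own mean number 25, 12 and 10 on the wild-type and 23, 23 and 11 on the mutant arrays, so blue cells prevail on wild-type replicates 2 and 3 and on mutant replicate 3.

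Both arrays numbered 3 lay below the other 4 for 9 of the 34 members, against 10.3% of genes above background. These were Krt15, Trp63, Epcam, Perp, Dsg2, Pkp3, Jup, Tfap2c and Spint2. Both lay above the other 4 for Grhl2 and Tfap2a, against 11.2% of genes. This count was chosen after the values were seen. Probe sets disagreed on it for some genes, since another probe set of Grhl2 and another of Tfap2a had both arrays lowest. The other probe sets of Tfap2c did not have both arrays lowest. The arrays numbered 3 were also those with the highest actin ratios, and wild-type replicate 3 was the female one. The part of RNA quality and of sex in these values was not tested. Without both arrays, 0 members passed limma at an adjusted p under 0.05 (smallest 0.541), the median difference was 0.05, and 3 members had an unadjusted p under 0.05, Sfn (0.65), Spint1 (0.58) and Rab25 (0.44), against 7.92% of all genes.

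Which members came nearest to a call changed with the arrays kept. Without mutant replicate 3, 3 of 36 had an unadjusted p under 0.05 by limma, against 7.43% of all genes. These were Grhl2 (-0.42), Tfap2c (0.49) and Sfn (0.67). Without wild-type replicate 1 it was also 3 of 36, against 4.86%, namely Itgb4 (0.83), Krt17 (1.01) and Lamb3 (0.51). Itgb4 and Krt17 read near the bacterial controls. In neither case did a member pass an adjusted p under 0.05 by limma, the smallest being 0.508 and 0.735. Leaving out each of the other 4 arrays gave 0 members with an unadjusted p under 0.05, against 4.75% to 5.29% of all genes.

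Other epithelial genes, 72 measured of 82 listed and none of them members, gave a median difference of 0.015, with 37 higher and 35 lower. They summed to 15300.9 to 15915.5 in wild-type and 15933.4 to 17399.1 in mutant pads, which did not overlap. Most of that sum came from the catenins Ctnnb1 (mean 7770.2) and Ctnna1 (2420.4). Neither was called at an unadjusted p under 0.05 by limma. The mutant arrays all lay above the wild-type arrays for 3 of the 72 and all below for 4, against 5.54% and 4.83% of all genes. At an unadjusted p under 0.05 by limma 1 was called, against 5.37% of all genes. That gene was Llgl2, a regulator of epithelial polarity, at 77.5, 74.1 and 76.1 in wild-type and 104.3, 117.5 and 102.5 in mutant pads. Its mutant arrays all lay above its wild-type arrays, and the difference was 0.43 (adjusted p = 0.834 by limma over all genes). St14, a membrane serine protease that the Spint proteins inhibit, differed by -0.45 with no overlap between the groups. It read 83.6, 84.2 and 150.5 in wild-type pads, so wild-type replicate 3 weighed most. Scel, a protein of the cornified envelope, differed by -0.38 at a mean of 31.3, under background. Tgm3, a transglutaminase, differed by 0.82, with wild-type values of 12.3, 12.6 and 63.2. The unadjusted p values of St14, Scel and Tgm3 were above 0.05 by limma. The array level of the 50 genes above background was 0.05, -0.05 and -0.03 in wild-type and 0.01, 0.09 and -0.08 in mutant pads. Its range was thus narrower than that of the keratin and junction genes, with wild-type replicate 1 and mutant replicates 1 and 2 again the 3 highest arrays.

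**Figure D4:**
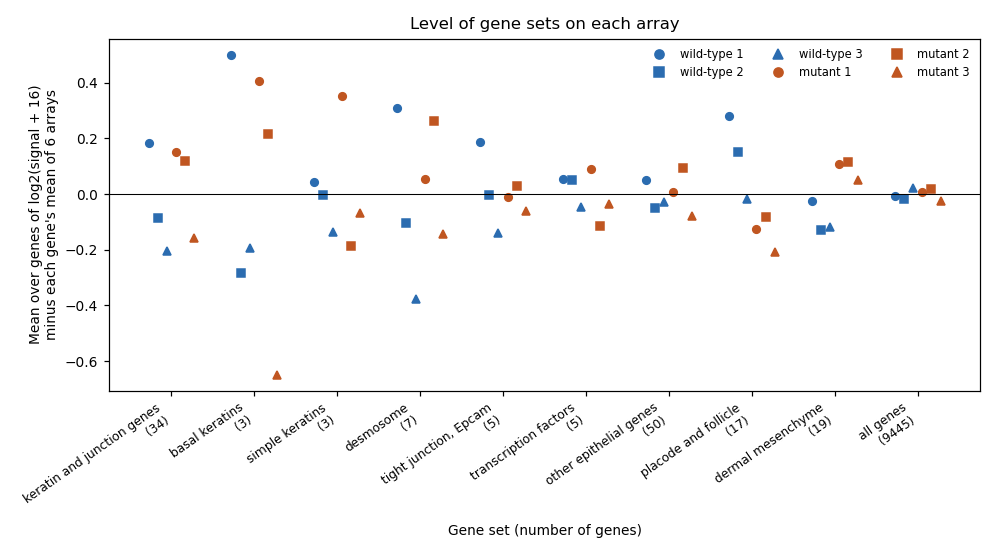
Array level (y axis, mean over genes of log2(signal + 16) minus each gene's mean of 6 arrays) for gene sets (x axis, number of genes in brackets), with 1 point per array, blue for wild-type and orange for mutant. The keratin and junction genes run from -0.21 to 0.18 with both genotypes on both sides of 0, and all genes above background from -0.03 to 0.02.

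Markers of cell types that lie beside or within the epithelium were read on the same arrays. Placode and follicle genes, 21 measured of 23, summed to 5018.3 to 5801.2 in wild-type and 4544.7 to 5086.2 in mutant pads, and their array level was 0.28, 0.15 and -0.02 against -0.13, -0.08 and -0.21. At an unadjusted p under 0.05 by limma, 4 of them were lower and 1 was higher, against 2.49% and 2.89% of all genes. None had an adjusted p under 0.05. This list, like the other marker lists, was chosen with earlier results of these data known, so its counts are not a test of it. The brightest genes in the sum, Nfkbia (mean 1834.4) and Ptch1 (911.4), were not called. Of the 21, 14 were lower and 7 higher in the mutant mean. Lhx2, the gene of smallest unadjusted p by limma in this list, read 122, 81.6 and 71 and then 19.4, 33.2 and 42.3, without overlap. Lgr6 was higher, by 0.39. The level of the members on the same arrays was 0.18, -0.09 and -0.21 in wild-type and 0.15, 0.12 and -0.16 in mutant pads. The difference between members and placode genes was not tested.

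Dermal mesenchyme markers, 22 of 22 measured, summed to 31786.2 to 34101.4 in wild-type and 35369 to 37978.7 in mutant pads, which did not overlap. The brightest genes in that sum, Vim (mean 8076.7) and Col3a1 (5820.1), each overlapped between the groups. At an unadjusted p under 0.05 by limma, 3 genes were higher and 1 lower in the mutant, against 2.89% and 2.49% of all genes. The lower gene, Tcf21, read under the highest bacterial control on all 6 arrays. Olfactory and nasal epithelium markers, 10 measured of 15, summed to 1110.6 to 1778.1 and 1189 to 1604, lowest on both arrays numbered 3 as for several members. Most of that sum came from Ebf3, at 1359.2, 1218.5 and 805.6 in wild-type and 1257.3, 1211 and 810.3 in mutant pads. At an unadjusted p under 0.05 by limma, 2 of the 10 were lower, against 2.49% of all genes. Of these, Hes5 had a mean of 24.7, under the highest bacterial control. Oral and dental epithelium markers, 7 measured of 8, summed to 717.4 to 845.9 and 693.6 to 793.1. Of these, 1 was higher at an unadjusted p under 0.05, against 2.89% of all genes. The part of these tissues in the members' values was not tested.

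The authors' deposited table of 65 probe sets, picked with their thresholds, held 0 probe sets of the members and 0 of the other epithelial genes. The table is small beside the 22626 probe sets kept here, so a count of 0 says little about the members. At the same thresholds of p and fold, the methods' t-test called 359 probe sets here, 1.59% of all. Over all 61 probe sets of the members, 0 had an unadjusted p under 0.05 by limma, against 5.27% of all probe sets. The groups failed to overlap at 1, a probe set of Dsg2 that read 2 to 9.1. Over all genes, each by its brightest probe set, that share was 10.4%, and it was not taken over all probe sets. Of the 18 further probe sets with a mean above background, 8 had the sign of their gene's brightest probe set and 10 the opposite one.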

How the data were processed

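Per the labels' protocols, biotin-labelled cRNA from total RNA of whole whisker pads was hybridised to 1-colour MOE430A arrays. The authors deposited 1 linear intensity per probe set and array, and the method that summarised probes is not stated in the sources used. The arrays share a 2% trimmed mean of 250.1, so they had been scaled before deposit. The authors' deposited table gives a fold (ratio) and normalized log2 group values, made with GeneSpring GX 10.0 per the design text, and was used only for its list of probe sets.

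The 64 control probe sets were left out and 22626 kept. After adding 16, log2 signals were fitted with limma 3.58.1 in R 4.3.3 (lmFit, eBayes, two-sided, no covariates), over 12393 genes, each by its brightest probe set, or over all probe sets, with Benjamini-Hochberg adjustment. Intervals are limma's 95% intervals. Symbols are the platform annotation's, brought up to date through Entrez numbers for 20351 probe sets. Promoters are RefSeq's. The programs were tested on simulated arrays. The members and lists were chosen with earlier results of these data known. The naming rule was per-array values for keratins, desmosome genes and transcription factors above background and for the 12 members of smallest unadjusted p, the rest by range, and up to 4 genes of smallest unadjusted p from other lists. Genes outside that rule (Ebf3, Xist, Eif2s3y, Epyc, Itga6, Ctnnb1, Ctnna1, Nfkbia, Ptch1, Vim, Col3a1 and further members given per array) were named after their values were seen. Lists not described in the report gave, at an unadjusted p under 0.05, 5 higher and 1 lower of 17 neuron genes, 1 and 1 of 13 skeletal muscle genes, 0 and 1 of 12 endothelial genes, 0 and 3 of 11 erythroid genes, 0 and 2 of 9 Schwann cell and melanoblast genes, and 0 of 11 macrophage and leukocyte genes. Over all genes the shares were 2.89% higher and 2.49% lower. Alternatives were offsets, normalizations, a filter, another probe set rule, the replicate number as a block, the methods' t-test (unpaired, equal variance) and leaving out arrays. No 2 arrays shared more than 0.357% of their values.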

Additional observations from a re-analysis of the deposited data

How the results depend on the processing

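Across the alternatives the count of members with an unadjusted p under 0.05 stayed at 0 with an offset of 1, a floor of 32, quantile normalization, equal medians, the filter, the mean of all probe sets, the replicate block and the methods' t-test. In those settings 5% to 5.89% of all genes had such a p. The count of members was 3 without both arrays numbered 3, against 7.92% of all genes. It was 0 to 3 when each array was left out in turn, against 4.75% to 7.43%. The count over all genes at an adjusted p under 0.05 was 1 (Epyc) with the dimmest probe sets left out, where 8814 genes were tested, and 0 in each other setting, with 666 genes at an unadjusted p under 0.05 by limma and 633 by the methods' t-test. The median difference of members was 0.077 to 0.10 in the settings that kept all arrays, and 0.013 to 0.19 when each array was left out. That of other epithelial genes was -0.034 to 0.068 when each array was left out. Taking the mean of all probe sets turned the sign of 5 members (Krt8, Dsg2, Pkp3, Tfap2a and Spint2), and leaving out 1 array that of 6 to 9. Same-numbered arrays of the 2 groups correlated in their deviations at 0.036, 0.047 and 0.090 over all genes, and each array did so best with its own number. Over the 4165 brighter genes these were 0.15, 0.23 and 0.31, again each best with its own number. The values are thus under 0.1 over all genes and over 0.1 in the brighter ones, and the labels do not say what a number stands for, so whether the numbers pair the embryos was not settled. With the replicate block, 0 members had an unadjusted p under 0.05 by limma, against 5.89% of all genes, and their smallest adjusted p was 0.869. The median difference was 0.095 for members and 0.015 for other epithelial genes, and 0 genes passed an adjusted p under 0.05. Genes near the bacterial controls have differences limited by that background.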
